A study of Mus musculus with 12 samples.

Results

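A set of 10 genes encoding immediate early transcription factors of the AP-1 and EGR families were followed across the study: Fos, Fosb, Fosl2, Jun, Junb, Jund, Atf3, Egr1, Egr2 and Egr3. They were taken by gene symbol from the deposited table, 10 of its 40481 genes, each with a single gene ID. RNA came from mouse hematopoietic stem cells (HSCs). The donors were wild type (WT) or had an inducible ETV6-RUNX1 gene, written iE/R in the labels, whose product joins parts of the transcription factors ETV6 and RUNX1. The cells were sorted from fetal liver (E14.5) or from the bone marrow of animals 8 weeks old. All 4 groups, WT included, had been held for 3 days in an HSC expansion culture that contained 1 µg/mL doxycycline (DOX), so every group had met the inducer and no group shows freshly isolated cells. Each group had 3 libraries. The labels do not say how many animals or cultures stood behind a library, and p-values then measure the spread between these libraries, which may be technical.

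AP-1 is a dimer of basic leucine zipper proteins. JUN proteins pair with each other or with FOS proteins, FOS proteins need a JUN partner, and ATF3 is a stress-induced relative that can pair with JUN proteins. EGR proteins are zinc finger factors that bind GC-rich sites and induce their own corepressors, NAB1 and NAB2. Many of these genes are transcribed within minutes of a growth factor, cytokine or stress signal through MAP kinases that act on SRF, its ETS partner factors and CREB, and their mRNAs decay fast. In HSCs, EGR1 is known as a factor linked to quiescence and retention in the niche.

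The 250 bases before the start site are shown for the 3 members (Egr2, Fosl2 and Fos) whose response to ETV6-RUNX1 differed between fetal liver and bone marrow in the comparisons that follow. Their levels in WT cells were not called different between the sources. The sequences are from RefSeq on GRCm38.p6, written 5′ to 3′ on the gene's strand, which is the plus strand for all 3. Capitals mark exact matches, on either strand, to a motif that was searched. The Egr2 window (chr10:67537619-67537868) is that of start site 3 of 5 in the RefSeq table, the Fosl2 window is chr5:32136222-32136471 and the Fos window is chr12:85473640-85473889.
Egr2: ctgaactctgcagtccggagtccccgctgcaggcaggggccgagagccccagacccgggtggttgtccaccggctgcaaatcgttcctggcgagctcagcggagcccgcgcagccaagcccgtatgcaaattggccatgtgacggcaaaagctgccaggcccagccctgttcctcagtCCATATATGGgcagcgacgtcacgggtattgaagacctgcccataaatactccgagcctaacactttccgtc
Fosl2: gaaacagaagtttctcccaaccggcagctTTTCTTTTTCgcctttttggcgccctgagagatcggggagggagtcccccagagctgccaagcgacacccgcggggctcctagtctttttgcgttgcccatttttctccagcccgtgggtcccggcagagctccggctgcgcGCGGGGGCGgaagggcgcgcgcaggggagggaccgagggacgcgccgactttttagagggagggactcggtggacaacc
Fos: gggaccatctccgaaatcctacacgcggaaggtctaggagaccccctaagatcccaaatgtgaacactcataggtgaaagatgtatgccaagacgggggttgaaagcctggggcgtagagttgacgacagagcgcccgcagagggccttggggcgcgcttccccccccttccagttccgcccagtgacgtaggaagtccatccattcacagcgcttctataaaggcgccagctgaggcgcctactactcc

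The capitals in Egr2 are a CArG box, the sequence that SRF binds, at positions -72 to -63 from the start site. The windows of Egr2 start sites 4 and 5 overlap the one shown and hold the same box. That of start site 2 holds another CArG box, and that of start site 1 holds none of the motifs searched. A CArG box was found in 1.47% of the 32851 mouse promoter windows of this length. In Fosl2 the capitals at -79 to -71 match GCGGGGGCG, which with GCGTGGGCG was searched as the EGR motif and was present in 3.06% of windows. The capitals at -221 to -212 in Fosl2 are a match on the minus strand to the ISRE, the core of the interferon-stimulated response element, present in 2.98% of windows. Fosb held an EGR motif as well, at -50 to -42. The matched stretches did not overlap each other. Windows of 8 members (12 start sites) were searched, and those of Egr1 and Egr3 were not. None held TGACGTCA (the CRE, bound by CREB, 1.55% of windows), TGACTCA (the AP-1 site, 4.46%) or TGTGGT (a form of the RUNX site, 14%). Other forms of the RUNX site were not searched. The Jund window ends at chr8:70697738, well before the gene start used here (chr8:70698949), so it may miss the promoter of Jund. These are letter matches and do not show binding.

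Libraries held 32.3 to 64.5 M reads, and 3 reads, taken as the floor of detection, equalled 0.0465 to 0.0928 CPM (reads per 1 M reads of the library). Floors cover counting error only. Each library correlated at r = 0.980 to 0.993 with the mean of the other libraries of its group, across genes that are not independent replicates. Runx1, whose sequence lies partly in the fusion, averaged 121 CPM in WT and 227 CPM in ETV6-RUNX1 fetal liver, and 96.3 and 170 CPM in bone marrow. All 12 HSC markers averaged at least 1 CPM in every group. Xist, the X-inactivation transcript, was at 51.7 to 89.3 CPM in fetal liver and 0.175 to 1.27 CPM in bone marrow libraries, so that source and the sex of the animals cannot be told apart. In fetal liver the Y-linked genes did not overlap between genotypes, with Ddx3y at 69.1 to 75.2 CPM in ETV6-RUNX1 and 23.5 to 41.5 CPM in WT libraries and Uty at 41.5 to 47.0 and 9.75 to 18.7 CPM. Their part in the fetal liver comparison was not tested. A lower level in these bulk samples can mean fewer cells with the transcript or less of it per cell, and these cannot be told apart.

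Tests used limma on log2(CPM + 1) over 14271 genes, those that reached 1 CPM in 3 or more libraries, with Benjamini-Hochberg adjustment over all of them and a threshold of 0.05. A fold change on this scale understates the change of low genes. Of the 10 members, 8 passed the filter. Fosb and Egr3 did not, Egr2 passed only through ETV6-RUNX1 fetal liver, and Atf3 passed through that group and 1 library of ETV6-RUNX1 bone marrow. Egr2 and Atf3 therefore had to be higher in ETV6-RUNX1 cells to be tested at all. For Egr2 the filter also fixed the direction of the difference between genotype effects. The same holds for Egr2 between sources within ETV6-RUNX1.

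In fetal liver, ETV6-RUNX1 cells had more RNA of 6 of the 8 tested members than WT cells, and none was lower. The 6 were Fos, Fosl2, Jun, Junb, Atf3 and Egr2. Atf3 and Egr2 count among them although the filter required them to be higher in ETV6-RUNX1 cells. They also enter the fetal liver median and count of members without overlap. Of the members free to go either way, Fos, Fosl2, Jun and Junb were called higher, and Jund and Egr1 were not called. Of all genes tested, 24.8% were called higher in this comparison and 43.1% were called in either direction. The median log2 fold change was 2.34 over the tested members and 0.08 over all genes. In bone marrow, 3 of the 8 were called, all higher (Fosl2, Jun and Junb), where 14.4% of all genes were called higher and 19.4% in either direction, and the medians were 0.96 and 0.13. Counted by libraries without overlap, 6 of the 8 lay higher in fetal liver (32.3% of all genes) and 5 in bone marrow (23.6%). Fos lay lower in bone marrow (10.9%), by a narrow gap. No member was called lower in either source. At an unadjusted p under 0.05, none was lower by limma or edgeR, and 1 was lower in bone marrow by DESeq2.

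**Figure D1:**
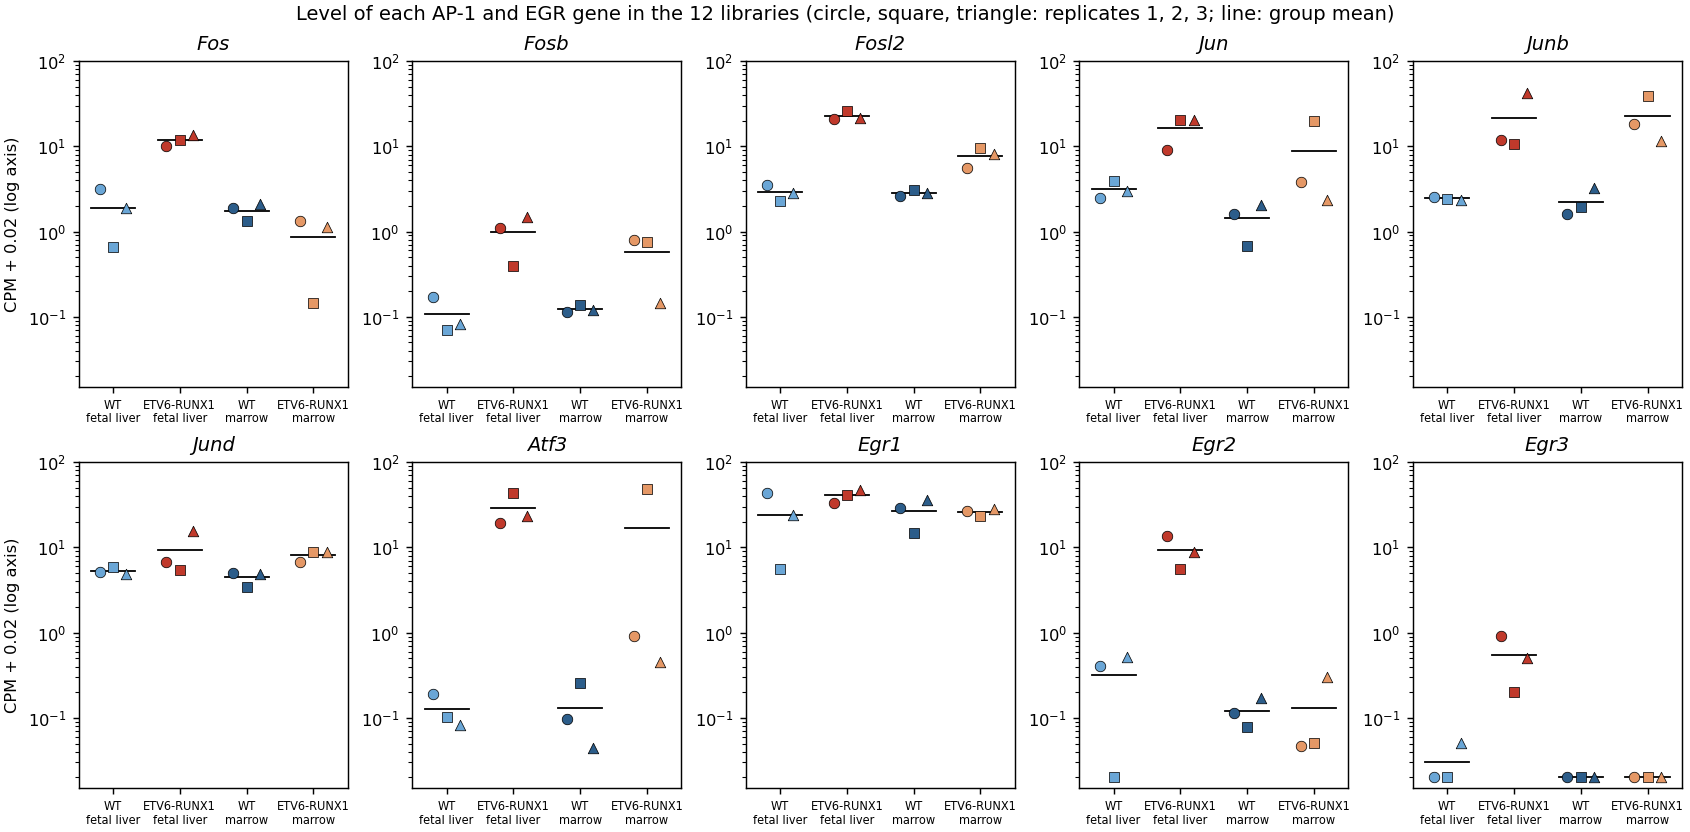
CPM of each AP-1 and EGR gene (log axis, with 0.02 added so that values of 0 can be drawn) in the 12 libraries, by group. Symbols are replicates 1, 2 and 3 and lines are group means. ETV6-RUNX1 fetal liver libraries lie above all WT fetal liver libraries for Fos, Fosl2, Jun, Junb, Atf3 and Egr2, and ETV6-RUNX1 bone marrow replicate 2 (square) stands apart for Atf3, Jun and Fos.

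Of the FOS family, Fos and Fosl2 had genotype effects that differed by source. Fos (chr12:85473890-85477273), the founding member, was at 3.16, 0.636 and 1.89 CPM in WT fetal liver and at 10.1, 11.7 and 13.7 CPM in ETV6-RUNX1 fetal liver. It was at 1.85, 1.30 and 2.07 CPM in WT bone marrow, and at 1.30, 0.124 and 1.11 CPM in ETV6-RUNX1 bone marrow. The groups did not overlap in either source, but they lay in opposite order: ETV6-RUNX1 was higher in fetal liver and lower in bone marrow. The bone marrow gap was narrow, from 1.297 CPM (48 reads) in ETV6-RUNX1 replicate 1 to 1.305 CPM (67 reads) in WT replicate 2. The lowest ETV6-RUNX1 bone marrow library held 4 reads. The log2 fold change of Fos was 2.24 ± 0.33 (SE) in fetal liver (limma adjusted p = 9.64e-05). It was -0.63 ± 0.33 in bone marrow (limma adjusted p = 0.189). The bone marrow value thus did not pass the test, and without replicate 2 of ETV6-RUNX1 bone marrow it was -0.30. The difference between the effects was 2.87 ± 0.46 and was called (limma adjusted p = 0.00168).

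Fosl2 (chr5:32135801-32157842) encodes FRA-2, a FOS relative without the strong activation domain of FOS. Its libraries read 3.52, 2.26 and 2.84 CPM in WT and 20.9, 25.8 and 21.5 CPM in ETV6-RUNX1 fetal liver. The bone marrow libraries read 2.61, 3.02 and 2.82 CPM in WT and 5.54, 9.49 and 8.11 CPM in ETV6-RUNX1. All ETV6-RUNX1 libraries exceeded all WT libraries of both sources, and the fetal liver ones exceeded the bone marrow ones. Fosl2 rose 7.92-fold in mean CPM in fetal liver (log2 fold change 2.62 ± 0.21, limma adjusted p = 3.09e-07). The rise in bone marrow was 2.74-fold (1.17 ± 0.21 on the log2 scale, limma adjusted p = 0.00234). The effects differed by 1.46 ± 0.30 (limma adjusted p = 0.00753). With a covariate for the percentage of reads from processed pseudogenes, an alternative added after seeing the data, that difference was 1.16 and not called (limma adjusted p = 0.115). That percentage was 1.23 to 1.90% in ETV6-RUNX1 fetal liver and 2.12 to 2.55% in ETV6-RUNX1 bone marrow libraries.

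Fosb (chr7:19302696-19310051), the third FOS gene, stayed under the filter. Its libraries held 7, 3 and 4 reads in WT fetal liver and 52, 21 and 49 reads in ETV6-RUNX1 fetal liver. They held 5, 6 and 4 reads in WT bone marrow and 29, 24 and 4 reads in ETV6-RUNX1 bone marrow. Mean CPM of Fosb was 0.0879 in WT and 0.980 in ETV6-RUNX1 fetal liver, where the libraries did not overlap. With no filter on low values its log2 fold change in fetal liver was 0.82 ± 0.21 (limma adjusted p = 0.0217), and the bone marrow value of 0.46 ± 0.21 was not called (limma adjusted p = 0.251).

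Of the JUN genes, Jun and Junb were called higher in both sources. Jun (chr4:95049034-95052222) encodes c-JUN, which together with FOS forms the classical AP-1 dimer. It was at 2.49, 3.93 and 2.99 CPM in WT fetal liver and at 9.03, 20.2 and 20.2 CPM in ETV6-RUNX1 fetal liver. In bone marrow it was at 1.58, 0.662 and 2.04 CPM in WT and at 3.84, 19.9 and 2.32 CPM in ETV6-RUNX1 libraries. The groups did not overlap in either source, but in ETV6-RUNX1 bone marrow replicate 2 alone was high. The fetal liver log2 fold change was 2.01 ± 0.52 (limma adjusted p = 0.00654). The bone marrow value was 1.56 ± 0.52, just under the threshold (limma adjusted p = 0.0489). Without replicate 2 of ETV6-RUNX1 bone marrow it was 0.77 (limma adjusted p = 0.177), and the call was lost in 17 of 23 alternatives.

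Junb (chr8:84974484-84978718), a JUN gene that can restrain cell cycle entry, was at 2.55, 2.38 and 2.36 CPM in WT fetal liver. ETV6-RUNX1 fetal liver libraries held 11.8, 10.7 and 41.7 CPM. WT bone marrow libraries held 1.60, 1.91 and 3.19 CPM and ETV6-RUNX1 bone marrow libraries 18.4, 38.7 and 11.5 CPM. Every ETV6-RUNX1 library thus stood above every WT library, with a single high library in each source. The log2 fold change of Junb was 2.44 ± 0.45 in fetal liver (limma adjusted p = 6.80e-04) and 2.75 ± 0.45 in bone marrow (limma adjusted p = 0.00142). Without the high bone marrow library it was 2.30 and still called (limma adjusted p = 0.00796). The difference between sources was -0.31, with a 95% interval from -1.68 to 1.06, which leaves room for a difference in either direction. The Junb exons overlap those of Prdx2 on the opposite strand, and the use of strand in counting is not given in the sources used here. Prdx2 averaged 408 CPM in WT and 248 CPM in ETV6-RUNX1 fetal liver, and 381 and 282 CPM in bone marrow, the opposite order to Junb.

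Jund (chr8:70698949-70700616), the JUN gene usually expressed without a stimulus, was called in neither source. It was at 5.12, 5.94 and 4.82 CPM in WT and 6.81, 5.48 and 15.5 CPM in ETV6-RUNX1 fetal liver, with overlap. In bone marrow it was at 5.05, 3.41 and 4.81 CPM in WT and 6.75, 8.93 and 8.82 CPM in ETV6-RUNX1 libraries, without overlap. Neither comparison passed the test, at 0.58 ± 0.29 in fetal liver (limma adjusted p = 0.116) and 0.76 ± 0.29 in bone marrow (limma adjusted p = 0.0771). The fetal liver value of Jund turned on single libraries: it was 0.18 without replicate 3 of ETV6-RUNX1 fetal liver and 0.85, and called, without replicate 2 (limma adjusted p = 0.0343). It was 0.95 and called with the pseudogene covariate (limma adjusted p = 0.0282). The bone marrow value was called without replicate 3 of ETV6-RUNX1 fetal liver, which enters through the shared estimate of spread (limma adjusted p = 0.0171).

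Atf3 (chr1:191170296-191218039) was close to the floor in all WT libraries, with 4 to 8 reads in fetal liver and 1 to 12 reads in bone marrow. ETV6-RUNX1 fetal liver libraries held 19.5, 43.5 and 23.5 CPM. ETV6-RUNX1 bone marrow libraries held 0.892, 49.0 and 0.433 CPM, so that replicate 2 exceeded every fetal liver library while the others stayed under 1 CPM. In fetal liver the log2 fold change of Atf3 was 4.67 ± 0.91 (limma adjusted p = 9.46e-04). In bone marrow it was 2.21 ± 0.91 and not called (limma adjusted p = 0.1003). DESeq2 called it at 7.10 (adjusted p = 2.52e-05) and edgeR at 6.99 (adjusted p = 0.00835). Without replicate 2 of ETV6-RUNX1 bone marrow, limma gave 0.57 (adjusted p = 0.214). The difference between sources was 2.46 ± 1.28 (limma adjusted p = 0.238) with that library and 4.10 (limma adjusted p = 5.53e-05) without it.

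The same library set Jun and Atf3 apart from Fos. Replicate 2 of ETV6-RUNX1 bone marrow was the highest library of its group for Jun, Junb, Atf3 and Fosl2, and the lowest for Fos, at 0.124 CPM from a group in which the others held 1.30 and 1.11 CPM. Its Egr2 level was 0.0309 CPM, which is 1 read, as in replicate 1 (0.0270 CPM), so Egr2 was under the floor in both. Over the 12 libraries, Pearson's r of log2(CPM + 1) was 0.94 between Jun and Atf3 and 0.92 between Fos and Egr2, against 0.48 between Fos and Jun and 0.26 between Fos and Junb. Other pairs lay between: r was 0.65 between Jun and Egr2 and 0.69 between Atf3 and Egr2. Fosl2 correlated with Fos at 0.72, Jun at 0.83, Egr2 at 0.85 and Atf3 at 0.89. These are descriptions over libraries that share groups and have no test.

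The EGR genes covered a wide range of levels. Egr1, on chromosome 18, was the most abundant EGR gene per kb of exon in every group. It was at 43.5, 5.54 and 23.8 CPM in WT and 33.5, 41.7 and 47.0 CPM in ETV6-RUNX1 fetal liver. In bone marrow it was at 29.0, 14.7 and 36.3 CPM in WT and 26.4, 23.5 and 28.2 CPM in ETV6-RUNX1 libraries. The groups overlapped in both sources. The log2 fold change of Egr1 was 1.10 ± 0.50 in fetal liver (95% interval 0.02 to 2.17, limma adjusted p = 0.0914) and 0.05 ± 0.50 in bone marrow (limma adjusted p = 0.955). Without replicate 1 of WT fetal liver the fetal liver value was 1.70 and called (limma adjusted p = 0.00984), and without the low replicate 2 of WT fetal liver the effect fell to 0.32.

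Egr2 (chr10:67535475-67542188), whose CArG box is shown with its promoter, was detected above 1 CPM in a single group. It was at 0.389, 0 and 0.496 CPM in WT fetal liver and at 13.5, 5.55 and 8.76 CPM in ETV6-RUNX1 fetal liver. Bone marrow libraries held 3 to 6 reads in WT and 1 to 9 reads in ETV6-RUNX1. That group was ETV6-RUNX1 fetal liver. Egr2 rose in fetal liver by 2.93 ± 0.26 on the log2 scale (limma adjusted p = 9.14e-07), and the bone marrow value was 0.01 ± 0.26 with a 95% interval from -0.55 to 0.56 (limma adjusted p = 0.986). The effects differed by 2.92 ± 0.36 (limma adjusted p = 2.53e-04). On recovered reads that difference was 4.85 with edgeR (adjusted p = 0.0563) and 4.83 with DESeq2 (adjusted p = 0.0504), and neither passed.

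Egr3 (chr14:70077203-70082614), an EGR gene of activated lymphocytes, had 43, 10 and 16 reads in ETV6-RUNX1 fetal liver and 0, 0 and 2 reads in WT fetal liver. No bone marrow library had a read. It did not pass the filter. With no filter on low values, Egr3 gave 0.56 ± 0.13 in fetal liver (limma adjusted p = 0.0110), and the difference between sources was 0.56 ± 0.18 and not called (limma adjusted p = 0.145).

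**Figure D2:**
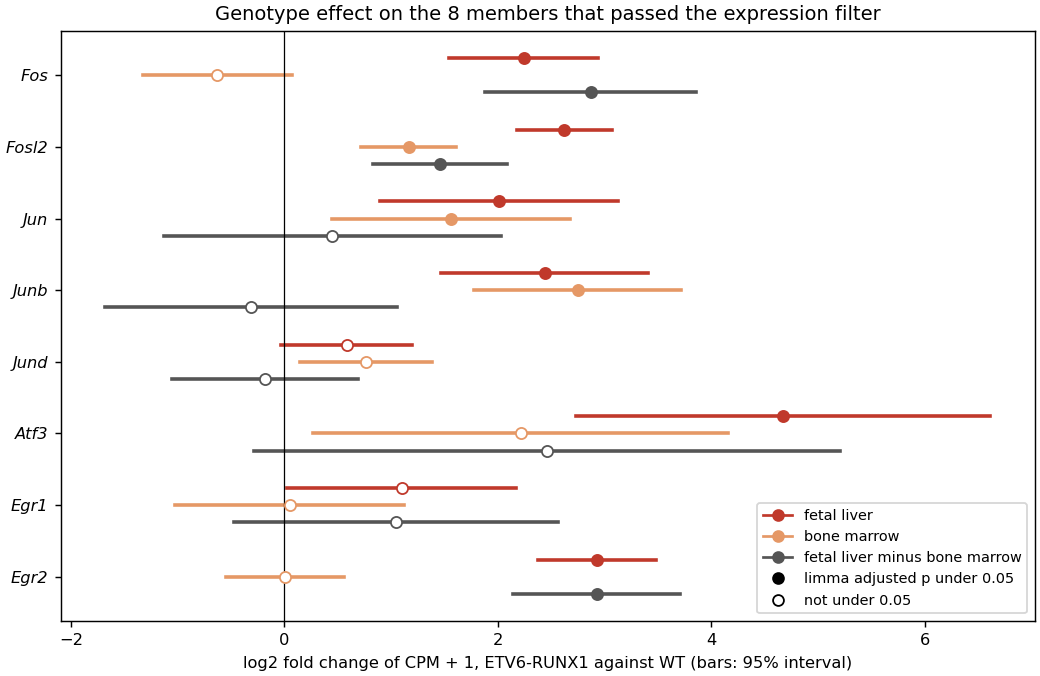
Log2 fold change of CPM + 1, ETV6-RUNX1 against WT, with its 95% interval for the 8 members that passed the filter, in fetal liver, in bone marrow and as the difference between them. Filled points have a limma adjusted p under 0.05. The difference is filled for Fos (2.87), Fosl2 (1.46) and Egr2 (2.92), and its interval includes 0 for the other 5.

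For the difference between the genotype effects, 3 of the 8 members were called, all larger in fetal liver, where 5.56% of all genes were called in that direction and 9.19% in either. These were Fos, Fosl2 and Egr2, and the direction for Egr2 was fixed by the filter. The difference is made from the same libraries as both genotype comparisons. The median difference was 1.25 over the tested members and -0.05 over all genes. Leaving out replicate 2 of ETV6-RUNX1 bone marrow made the count 4, with Atf3 added.

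Fetal liver and bone marrow were also compared within a genotype. In WT cells 0 of the 8 members were called, where 11.1% of all genes were. None reached an unadjusted p under 0.05 by limma, edgeR or DESeq2, and the medians were 0.06 over the members and -0.07 over all genes. Jun alone had no overlap in WT cells, at 2.49 to 3.93 CPM in fetal liver against 0.662 to 2.04 CPM in bone marrow (10.6% of all genes lay higher without overlap). Its log2 fold change of 0.80 had a 95% interval from -0.32 to 1.91 (limma adjusted p = 0.366). In ETV6-RUNX1 cells, 3 of the 8 were called, all higher in fetal liver, where 10.4% of all genes were called higher and 28.6% in either direction. The libraries of 4 members (these and Egr1) lay higher without overlap, against 14.4% of all genes. The called members were Egr2 (3.14 ± 0.26, limma adjusted p = 8.96e-07), Fos (2.86 ± 0.33, limma adjusted p = 1.96e-05) and Fosl2 (1.47 ± 0.21, limma adjusted p = 1.32e-04). Egr2 counts among them although its direction here was fixed by the filter. Without replicate 2 of ETV6-RUNX1 bone marrow the count was 5, with Jun at 2.04 (limma adjusted p = 9.93e-04) and Atf3 at 4.10 (limma adjusted p = 5.15e-07) added. Within each genotype, source and the sex of the animals moved together.

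Dividing CPM by exon length allowed levels to be compared between genes. In WT cells Egr1 had the highest mean, 5.41 CPM per kb (SD 4.23) in fetal liver and 5.95 (SD 2.46) in bone marrow. Jund followed at 3.17 (SD 0.346) and 2.65 (SD 0.531). In replicate 2 of WT fetal liver the order was reversed, with Egr1 at 1.24 and Jund at 3.56 CPM per kb. Junb, Jun and Fos lay between 0.448 and 1.06 CPM per kb in WT cells, and Fosl2 at 0.297 and 0.291. In ETV6-RUNX1 fetal liver the order of means was Atf3 (13.4 CPM per kb), Junb (9.30), Egr1 (9.08), Jund (5.55), Jun (5.17) and Fos (5.04), then Egr2 (2.72) and Fosl2 (2.35). Atf3 (SD 5.97), Junb (SD 7.63) and Egr1 (SD 1.52) did not differ there beyond their spread, nor did Jund, Jun and Fos. In ETV6-RUNX1 bone marrow Junb led with 9.94 CPM per kb, and the mean of 7.79 for Atf3 rested on replicate 2.

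Jund made up a smaller part of JUN family transcripts in ETV6-RUNX1 cells. Its share of the summed CPM per kb of Jun, Junb and Jund was 60.9% ± 1.20 (SD, n = 3) in WT fetal liver and 28.1% ± 5.45 in ETV6-RUNX1 fetal liver. In bone marrow the share of Jund was 65.6% ± 6.55 in WT and 32.5% ± 14.7 in ETV6-RUNX1 libraries. The libraries did not overlap in either source (exact two-sided permutation test, p = 0.1 each, the smallest that 3 against 3 allows). Junb took the larger share in turn, 20.4% against 43.0% in fetal liver and 23.9% against 55.0% in bone marrow.

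The FOS part of AP-1 transcripts lay in opposite order in the sources, a difference that was not tested. Fos, Fosb and Fosl2 together gave 1.12 ± 0.61 CPM per kb in WT and 7.54 ± 0.84 in ETV6-RUNX1 fetal liver, but 1.05 ± 0.15 and 1.24 ± 0.09 CPM per kb in bone marrow. The JUN sum went from 5.21 to 20.01 CPM per kb in fetal liver and from 4.07 to 17.6 in bone marrow. The FOS part of all 6 AP-1 genes was therefore 17.5% in WT and 30.1% in ETV6-RUNX1 fetal liver, with overlap (exact permutation p = 0.2), and 20.7% in WT and 7.77% in ETV6-RUNX1 bone marrow, without overlap (exact permutation p = 0.1). Within the FOS family, Fos itself held 67.7% and 66.6% in WT and ETV6-RUNX1 fetal liver. In bone marrow its share was 70.1% in WT and 28.1% in ETV6-RUNX1 libraries, while that of Fosl2 was 28.3% and 64.6% (exact permutation p = 0.1 for both genes). These shares describe RNA and not protein dimers.

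**Figure D3:**
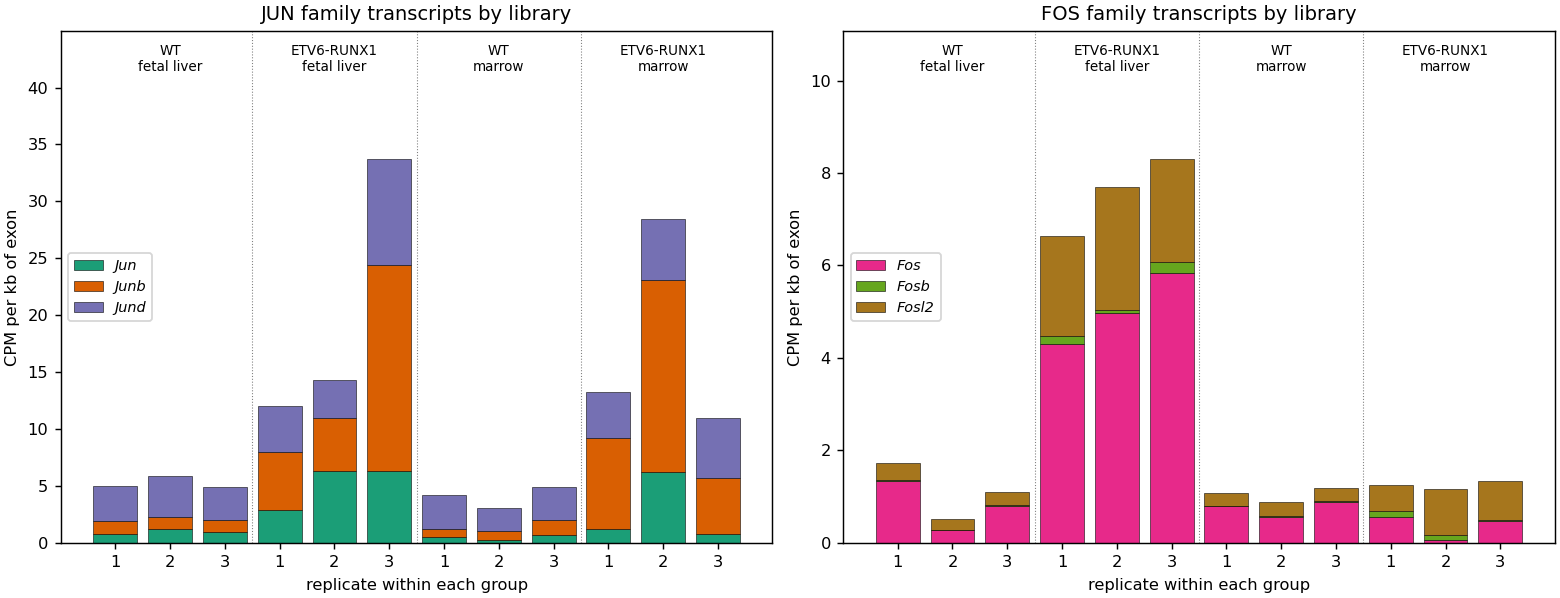
Stacked CPM per kb of exon for the JUN genes (left) and FOS genes (right), with a bar for each library grouped by genotype and source. The JUN bars are taller in ETV6-RUNX1 libraries of both sources (11.0 to 33.7 CPM per kb against 3.08 to 5.83 in WT), while the FOS bars are taller only in ETV6-RUNX1 fetal liver (6.63 to 8.30 CPM per kb, against at most 1.73 elsewhere).

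Among other AP-1 zipper genes, 10 of 12 were tested, and 4 rose and 1 fell in fetal liver while 1 rose in bone marrow. Counted in either direction, these are near or under the background of 43.1% of all genes called in fetal liver and 19.4% in bone marrow. Called higher were 24.8% of all genes in fetal liver and 14.4% in bone marrow. Batf2, an interferon-induced zipper factor, rose from a mean of 2.51 to 36.8 CPM in fetal liver (3.38 ± 0.26, limma adjusted p = 2.69e-07). Atf7, a relative of ATF2, rose by 0.72 and Mafg, a small MAF protein, by 0.58, the latter call being lost in 11 of 23 alternatives. Batf, a partner of JUN in lymphocytes, fell by 0.64 in fetal liver. Fosl1, which encodes FRA-1, was the gene called in bone marrow (0.81, limma adjusted p = 0.0409), and that call was lost in 14 of 22 alternatives. Batf2 overlaps Arl2 on the opposite strand and Mafg overlaps Sirt7.

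Both NAB corepressors, which EGR proteins can induce, rose in fetal liver (24.8% of all genes were called higher), and Nab2 rose in bone marrow. Nab2 went from 3.25 to 12.4 CPM in fetal liver (1.62 ± 0.25, limma adjusted p = 1.37e-04) and from 2.97 to 6.26 CPM in bone marrow (0.86 ± 0.25, limma adjusted p = 0.0255). The bone marrow call of Nab2 was lost in 8 of 23 alternatives. Nab1 rose in fetal liver (0.62) and was not called in bone marrow (0.39, limma adjusted p = 0.0937). Nab2 overlaps Stat6 and Nemp1 on the opposite strand. Egr4 and Wt1 of the same list did not pass the filter.

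Upstream, 3 of the 9 SRF, ETS partner and CREB genes rose in fetal liver and 2 in bone marrow, and none fell. These counts are near the shares of all genes called higher, 24.8% and 14.4%. Elk4 (0.97) and Elk3 (0.80), ETS partners of SRF, and Mrtfb (0.95), an actin-sensitive SRF coactivator, were those that rose in fetal liver. Mrtfb (0.63) and Elk3 (0.46) rose in bone marrow, with the calls lost in 5 and 10 of 23 alternatives. Elk3 overlaps Cdk17 and Elk4 overlaps Mfsd4a on the opposite strand. Of 23 MAP kinases and kinases above them, 10 rose and 1 fell in fetal liver, and 8 rose in bone marrow. Counted in either direction, the fetal liver calls are near the 43.1% of all genes called there. The 10 that rose are above the 24.8% of all genes called higher in fetal liver. In bone marrow 14.4% of all genes were called higher. Over 23 alternatives, 5 to 13 genes of this list were called in fetal liver and 2 to 12 in bone marrow, in either direction. Mapk11, which encodes p38 beta, rose from 2.32 to 14.4 CPM in fetal liver and from 2.77 to 11.6 CPM in bone marrow. Map3k8, the kinase TPL2, rose by 1.26 and 0.92 on the log2 scale. Mapk12, another p38 gene, rose by 1.11 and 1.01. These are RNA levels and give no kinase activity.

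MAP kinase phosphatases and feedback inhibitors are in many cases induced by the same signals as the members. Of 16 tested, 10 rose and 2 fell in fetal liver (24.8% of all genes were called higher and 18.3% lower). In bone marrow 1 rose, which is under the 14.4% of all genes called higher there. Over 23 alternatives, 1 to 4 genes of this list were called in bone marrow, in either direction. Dusp10, a phosphatase for JNK and p38, went from 3.39 to 36.5 CPM in fetal liver (3.09 ± 0.24) and from 4.68 to 5.59 CPM in bone marrow (0.17 ± 0.24, not called). Dusp14 went from 0.680 to 7.95 CPM in fetal liver (2.41 ± 0.18) and was at 0.169 and 0.0812 CPM in bone marrow. Like Egr2, Dusp14 passed the filter only through ETV6-RUNX1 fetal liver, so it had to be higher there to be tested. Dusp8 rose by 2.67 and Dusp6, the ERK phosphatase, by 1.14 in fetal liver. Dusp8 passed the filter only through ETV6-RUNX1 libraries. Dusp1, the gene called in bone marrow, rose by 1.15 there. The difference between sources was itself called for 4 genes of this list. It was larger in fetal liver for Dusp10 (2.92), Dusp14 (2.52) and Dusp6 (1.10, lost in 6 of 22 alternatives), and in the opposite direction for Dusp4 (-1.11, limma adjusted p = 0.0162, lost in 3 of 21 alternatives).

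Of 30 other immediate early genes tested, 19 rose and 1 fell in fetal liver, and 17 rose in bone marrow. Of all genes, 24.8% were called higher in fetal liver and 14.4% in bone marrow. Ier5l, Nr4a3, Klf2, Klf4, Ccn2 and Npas4 did not pass the filter. Zfp36, which encodes an mRNA decay factor, went from 60.1 to 348 CPM in fetal liver and from 51.2 to 105 CPM in bone marrow. Klf6 rose by 1.85 and 1.22 on the log2 scale, and Nfkbia, the inhibitor of NF-kB, by 2.36 and 2.23. Nr4a1, an orphan nuclear receptor gene, rose from 6.15 to 26.7 CPM in fetal liver and was at 3.67 and 2.86 CPM in bone marrow. Zfp36l1 (1.47) and Rhob (1.29) rose in bone marrow. The gene that fell in fetal liver was Myc, from 240 to 125 CPM. This list overlaps lists used earlier on these data and gives no independent evidence of direction.

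**Figure D4:**
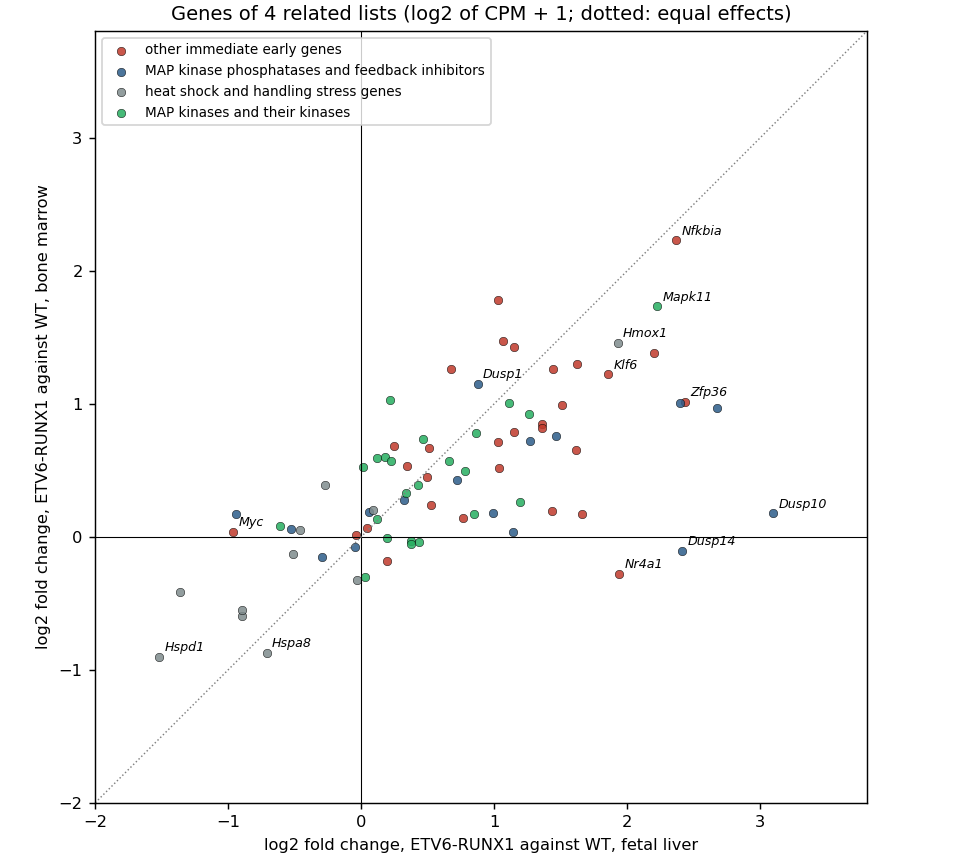
Log2 fold change in fetal liver (x axis) against bone marrow (y axis), ETV6-RUNX1 against WT, for the tested genes of 4 related lists, with a dotted line of equal effects. Dusp10, Dusp14 and Nr4a1 lie near 0 on the bone marrow axis and at 1.94 to 3.09 in fetal liver, Nfkbia lies near the line, and the heat shock genes Hspd1 and Hspa8 are negative on both.

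Of 14 heat shock and handling stress genes, 11 were tested. The inducible genes Hspa1a, Hspa1b and Hspb1 did not pass the filter. In fetal liver 6 fell and 1 rose, where 18.3% of all genes were called lower, and in bone marrow 4 fell and 1 rose, where 4.93% were called lower. Summed over the list, WT libraries held 10140 to 11209 CPM and ETV6-RUNX1 libraries 5781 to 7349 CPM. The mitochondrial chaperone gene Hspd1 fell by 1.52 in fetal liver and by 0.90 in bone marrow, and Hspa8 fell by 0.71 and 0.87. The gene that rose was Hmox1, heme oxygenase, by 1.93 and 1.46. ETV6-RUNX1 bone marrow replicate 2, where Atf3 and Jun were high, had a sum of 6091 CPM, the lowest of its group. A part of stress or handling in the levels of the members was not tested.

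Markers of other blood cells differed between the groups as well. Monocyte and macrophage markers summed to 253 to 315 CPM in WT and 750 to 954 CPM in ETV6-RUNX1 fetal liver, and to 261 to 347 and 331 to 490 CPM in bone marrow. Most of the fetal liver sum was Lyz2 (means of 233 CPM in WT and 686 CPM in ETV6-RUNX1). Mrc1 (1.47 and 1.25 CPM), Cx3cr1 (0.306 and 0.086 CPM) and C1qc (0.0344 and 0 CPM) lay lower in ETV6-RUNX1 fetal liver. Of the 13 markers, 4 averaged at least 1 CPM in WT and 7 in ETV6-RUNX1 fetal liver, 3 and 6 in bone marrow, and the macrophage marker C1qa stayed under the floor in every group and C1qb at a mean of 0.164 CPM or less. Megakaryocyte markers summed to 3069 to 4538 CPM in WT and 7145 to 7845 CPM in ETV6-RUNX1 fetal liver, with all 8 above 1 CPM in both. They summed to 1362 to 1815 and 466 to 2087 CPM in bone marrow. Gp9 alone of these markers was lower in ETV6-RUNX1 fetal liver (means of 387 CPM in WT and 213 CPM). In fetal liver erythroid markers summed to 676 to 938 CPM in WT and 1324 to 2060 CPM in ETV6-RUNX1 libraries, and endothelial and stromal markers to 106 to 147 and 238 to 319 CPM. The erythroid sum was mostly Hbb-bt (means of 815 and 1611 CPM), and Klf1 alone was lower (0.654 and 0.175 CPM). Pecam1 (69.7 and 141 CPM) and Tek (22.4 and 96.9 CPM) made up most of the endothelial and stromal rise. Other markers of that list, such as Pdgfrb (5.38 and 0.229 CPM), lay lower. Granulocyte markers lay the other way, at 238 to 312 CPM in WT and 37.4 to 55.2 CPM in ETV6-RUNX1 fetal liver. In bone marrow they summed to 155 to 367 CPM in WT and 103 to 128 CPM in ETV6-RUNX1 libraries. Of the 9 granulocyte markers, 8 averaged at least 1 CPM in WT and 2 in ETV6-RUNX1 bone marrow. HSC markers summed to 1835 to 2231 CPM in WT and 4280 to 4384 CPM in ETV6-RUNX1 fetal liver. Among them Ly6a rose from a mean of 19.0 to 880 CPM, and Gata2 alone fell, from 109 to 85.8 CPM. The part of these cells in the levels of the members was not tested.

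For each tested member, the genes with the most similar pattern over the 12 libraries were taken from 9885 candidates by Pearson's r of log2(CPM + 1), as a description. F11r was the closest to Fosl2 (r = 0.99), Stx6 to Junb (r = 0.98) and Tmtc2 to Egr2 (r = 0.97), followed for Egr2 by Dkk2 and Col5a2. Anxa5 was the closest to Fos (r = 0.95), Gadd45g to Jun (r = 0.95), Hist3h2a to Atf3 (r = 0.95) and Ier5 to Jund (r = 0.94). Egr1 had no gene as close, with Rhof leading at r = 0.77. Col5a2, a fibrillar collagen gene, showed the division by source that Egr2 did, with means of 0.916 and 96.1 CPM in WT and ETV6-RUNX1 fetal liver and 0.112 and 0.699 CPM in bone marrow.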

How the data were processed

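Total RNA of 12 libraries was made into stranded small-input libraries and sequenced as read pairs, per the labels' protocols. The authors deposited CPM per gene. The submitters' processing notes name STAR 2.5.1a, featureCounts 1.4.6-p5, Salmon 0.8.2, edgeR, limma and GRCm38, with no roles; use of strand is not given in the sources used here. All CPM values (100%) were whole multiples of 1 read (tolerance 0.01 read), so reads were recovered. Of 40757 rows, 276 repeated an ID and were dropped. limma 3.58.1 (R 4.3.3; trend, 4 group coefficients, two-sided, no covariate) tested log2(CPM + 1); edgeR 4.0.16 (quasi-likelihood) and DESeq2 1.42.0 on recovered reads were alternatives. Exon lengths and positions are from GENCODE on GRCm38, and promoter windows from RefSeq. Scripts were tested on simulated data. The members and lists were chosen with earlier results of these data known. All members were named, with up to 4 called genes of smallest p per list and genotype comparison, and the 3 genes most like each member. Alternatives were another pseudocount (0.1), no filter or a mean of 5 CPM, other scalings, a replicate block, covariates (Xist, pseudogene share), fits on the compared libraries and leaving out each library. Protein sequences were not used here.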

Additional observations from a re-analysis of the deposited data

Results flagged for a closer look

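The genotype effect, ETV6-RUNX1 against WT on the log2 scale, differed between fetal liver and bone marrow by limma's test of the difference itself for 3 members and 10 genes of the related lists. Of the members, the difference (fetal liver minus bone marrow) was 2.87 for Fos, 1.46 for Fosl2 and 2.92 for Egr2. In the lists it was 2.72 for Batf2, 2.92 for Dusp10, 2.52 for Dusp14, 1.10 for Dusp6, 2.22 for Nr4a1, 1.49 for Nr4a2 and 1.42 for Zfp36. It was negative for Dusp4 (-1.11), Myc (-0.999) and Hspe1 (-0.95). The call for Hspe1 was lost in 12 of 22 alternatives and that for Dusp6 in 6 of 22. Egr2 and Dusp14 passed the filter only through ETV6-RUNX1 fetal liver, which fixed their direction.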

How the results depend on the processing

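Over the 5 comparisons of the 8 tested members, 804 alternative values kept direction and side of the threshold, 20 lost the call, 17 gained one and 45 changed sign. All that changed sign were uncalled, with and without the alternative, and the cause was not tested. For the genotype effect in bone marrow, Egr2 (0.0076) was -0.098 with a pseudocount of 0.1, -0.0012 with median-of-ratios scaling, -0.11 with the pseudogene covariate and -0.097 to 0.061 on leaving out a library. Egr1 (0.050) was -0.088 with median-of-ratios scaling, -0.18 with quantile normalization, -0.19 with edgeR, -0.18 with DESeq2 and -0.32 to 0.31 on leaving out a library. For the difference between effects, Jun (0.45) was -0.17 with edgeR, -0.15 with DESeq2 and -0.082 to 1.24 on leaving out a library. Jund (-0.18) was 0.54 with the pseudogene covariate and -0.58 to 0.090 on leaving out a library. Junb (-0.31) was -0.91 to 0.14 on leaving out a library. Between sources in WT, Atf3 (-0.0038) was 0.048 with a pseudocount of 0.1, 0.0054 with median-of-ratios scaling, 0.026 with quantile normalization, 0.0049 with DESeq2, 0.29 with the pseudogene covariate and -0.060 to 0.074 on leaving out a library. Fos (-0.011) was 0.050 with median-of-ratios scaling, 0.077 with quantile normalization, 0.22 with edgeR, 0.22 with DESeq2 and -0.32 to 0.35 on leaving out a library. Fosl2 (0.011) was -0.11 to 0.13 on leaving out a library. Egr1 (-0.43) was -1.03 to 0.35 on leaving out a library. Junb (0.12) was -0.027 to 0.32 on leaving out a library. Between sources in ETV6-RUNX1, Junb (-0.20) was 0.059 with edgeR, 0.064 with DESeq2, 0.0024 with the pseudogene covariate and -0.80 to 0.26 on leaving out a library. Jund (0.046) was -0.36 to 0.32 on leaving out a library.

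With a mean of at least 5 CPM, which left fewer members in the test, 1 was called for the difference and 1 between sources in ETV6-RUNX1. Leaving out a library gave 3 to 5 called in the latter comparison. Over all genes, calls in bone marrow numbered 2763 and were 1601 with only the compared libraries and 1520 without ETV6-RUNX1 replicate 2. For the difference, 1311 became 543 with the pseudogene share, 669 with Xist, 767 with no filter and 731 to 2332 on leaving out a library, and for sources in WT 1591 became 868 to 2781. Higher genes were 74.5% of bone marrow calls, 53.0% with median-of-ratios scaling and 48.5% with quantile normalization. In fetal liver 57.6% became 42.0% with quantile normalization. The median of all genes in bone marrow, 0.13, was 0.01 with median-of-ratios scaling.

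Replicate numbers do not pair the libraries: deviations of same-numbered libraries correlated at -0.44 to 0.39, and 2 of 12 libraries correlated best with their own number. With the replicate block, members called were 6 in fetal liver, 2 in bone marrow, 3 for the difference, 0 between sources in WT and 4 in ETV6-RUNX1. Pairing cannot change a difference of means, so it gives no check on the size of the Jund share differences (-32.7 points in fetal liver and -33.1 in bone marrow). Depth limits Fosb, Egr3, and Egr2 and Atf3 in WT, where values rest on a few reads.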
